A study of Mus musculus with 10 samples.

Results

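The regions described here are the stretches of open sperm chromatin that lay in or within 10 kb of an olfactory receptor gene. GENCODE M21 lists 1407 genes whose symbol starts with Olfr, of which 1399 lie on chr1 to chr19. Extending these genes by 10 kb on either side and joining overlaps gave 24.5 Mb of neighbourhoods on 18 chromosomes, 1.02% of the sequenced bases of chr1 to chr19. Of the 113093 merged peak regions on chr1 to chr19 (113493 on all chromosomes), 718 touched these neighbourhoods, 0.635%. Gene positions alone chose them, so the number of peaks, their sequence and their recurrence were not used in the choice.

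The data are ATAC-seq peak lists of mature sperm from the cauda epididymis of wild-type C57BL/6JRccHsd males, 1 library and 1 list per mouse. ATAC-seq marks DNA that the Tn5 transposase can reach. The 6 F0 CD mice received a maintenance chow with 14% protein, and the 4 F0 WD mice received a Western diet (D12079B) with 40% of kcal from fat and 43% from carbohydrate, both for 6 months. The males were 3 weeks old when acquired, and no genetic modification or other agent was used. The sample titles give 6 and 4 mice, while a protocol note gives the numbers the other way round. The titles were followed.

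Olfactory receptors are G protein-coupled receptors that detect odorants, and they form the largest gene family in the mouse. Their genes stand in tandem clusters that arose by duplication, and in most of them the protein is encoded by a single exon. Each olfactory sensory neuron transcribes a single allele, while the clusters are kept in closed chromatin in most other cells. A few receptors are also transcribed in testis, and Olfr16 (MOR23) has been studied in sperm. Most histones of the sperm nucleus are replaced by protamines.

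Each list held 13224 to 29364 peaks on chr1 to chr19, of which 60 to 157 had their midpoint in the neighbourhoods (0.428% to 0.627%). The lists carry no read counts. The reads under each summit followed from its fold and p-value, and all 953 summits of the members gave whole numbers to within 0.001 of the deposited −log10 p. They lay between 9 and 44 reads, with a median of 15. Across the libraries the smallest summit of a member held 9 to 13 reads. A region too weak to be called is not in the lists even if it was open. The lists could not check the cell type: none of 12 sperm and spermatid genes and none of 8 epithelial genes had a peak within 1 kb of a start site in any library, and at most 1 of 8 immune genes did.

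Of the 12 members found in the most libraries, 7 held a CA/TG run, meaning 10 or more such units in a row, and 5 did not. Such arrays are shown for a region found in 9 libraries and for a region found in 7, as the 200 bases around the strongest summit. The sequence is the plus strand of GRCm38 from RefSeq, and capitals mark runs of at least 10 CA or TG units.

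Olfr279, chr15:98496811-98497010: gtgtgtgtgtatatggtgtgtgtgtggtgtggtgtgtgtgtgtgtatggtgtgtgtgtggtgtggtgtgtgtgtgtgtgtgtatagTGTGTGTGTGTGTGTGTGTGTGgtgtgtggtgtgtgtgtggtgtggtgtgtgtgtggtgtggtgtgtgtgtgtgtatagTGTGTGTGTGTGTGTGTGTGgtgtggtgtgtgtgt

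Olfr1344, chr7:6433533-6433732: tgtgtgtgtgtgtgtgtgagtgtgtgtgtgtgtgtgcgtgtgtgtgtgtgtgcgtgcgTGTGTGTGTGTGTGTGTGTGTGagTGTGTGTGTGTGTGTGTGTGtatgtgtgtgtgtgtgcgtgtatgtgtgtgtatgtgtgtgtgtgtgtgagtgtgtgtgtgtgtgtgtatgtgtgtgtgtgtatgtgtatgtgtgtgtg

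All 200 bases of each were repeat-masked (lower case in the RefSeq sequence). The regions near Olfr1345-ps1 and Olfr283, which are not shown, were 99.6% and 100% masked without such a run, and their longest runs were 18 and 12 bases. The Olfr279 region lay in an intron of that gene, 188 bp from an annotated start. The Olfr1344 region lay 4865 bp from the start of that gene, in an intron of Gm20715.

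Receptor coding exons were also among the 12. The regions at Olfr142 and Olfr1271, 2 neighbouring receptor genes of chr2, are shown in the same way, and were picked for printing after their values had been seen. They hold no run to capitalise.

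Olfr142, chr2:90252184-90252383: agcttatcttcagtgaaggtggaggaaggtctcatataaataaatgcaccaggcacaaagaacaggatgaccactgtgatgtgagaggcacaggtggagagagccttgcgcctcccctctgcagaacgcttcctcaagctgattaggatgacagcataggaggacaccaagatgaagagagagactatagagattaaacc

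Olfr1271, chr2:90265749-90265948: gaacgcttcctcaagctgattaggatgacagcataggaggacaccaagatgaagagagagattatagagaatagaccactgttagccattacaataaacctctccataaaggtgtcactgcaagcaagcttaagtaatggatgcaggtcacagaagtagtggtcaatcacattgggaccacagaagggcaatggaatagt

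All 587 bases of the Olfr142 region were coding sequence of Olfr142, as were 842 of the 844 bases of the Olfr1271 region for Olfr1271. Only 12.8% and 10.8% of their bases were repeat-masked. Both genes lie on the minus strand, so the printed bases are the reverse complement of the transcript. The best local alignment of the regions matched 551 of 587 aligned positions in the same orientation, 93.9% identity. Reads that match both copies cannot be assigned with certainty, so these regions are uncertain as to which copy was open.

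Peaks were sparser in the olfactory receptor neighbourhoods than in the rest of chr1 to chr19. The libraries held 3.82 ± 1.19 peaks per Mb inside them (SD, n = 10) and 7.49 ± 1.99 outside. In the F0 CD libraries 1 to 6 the density inside was 2.45, 6.40, 4.12, 4.20, 2.73 and 4.49 peaks per Mb. In the F0 WD libraries 1 to 4 it was 4.61, 2.90, 3.26 and 3.02 peaks per Mb. The highest value inside, 6.40, belonged to the library with the longest list, which held 12.3 peaks per Mb outside. The log2 ratio of inside to outside averaged -0.99 ± 0.19 (SD, n = 10), or 50.3% of the density outside. It was below 0 in 10 of 10 libraries, from -1.27 to -0.71 (exact sign-flip test, two-sided, p = 0.00195, the smallest this design allows, adjusted p = 0.00488 over 5 measures). All libraries share 1 genome, so this test covers the spread between libraries only. How reads that match several receptor copies equally were treated cannot be read from the lists. Their part in the density difference was not tested.

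**Figure D1:**
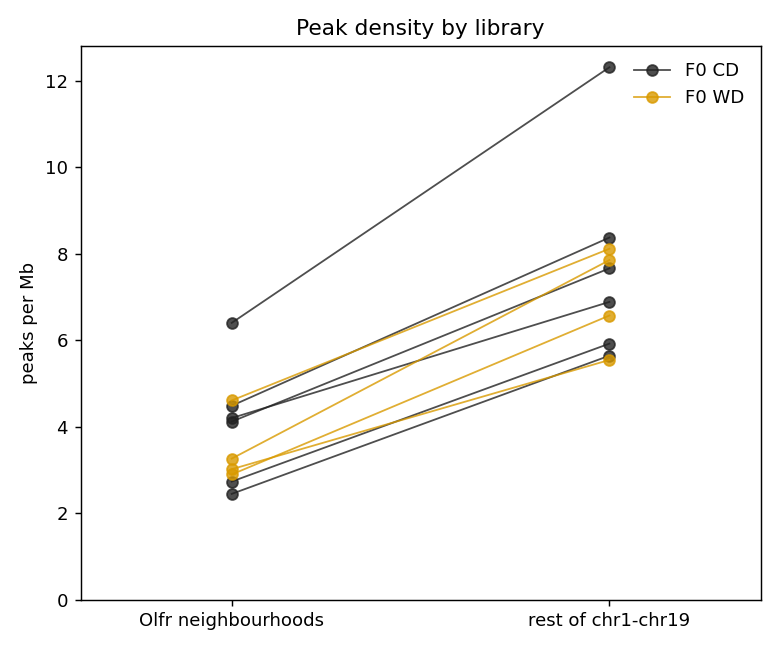
Peaks per Mb in the neighbourhoods of Olfr genes and in the rest of chr1 to chr19, with 1 line per library (6 F0 CD in black, 4 F0 WD in yellow). Every line rises to the right: the densities are 2.45 to 6.40 inside and 5.55 to 12.3 outside.

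Counted as merged regions, the neighbourhoods held 29.1 per Mb against 47.4 in the rest, 61.4%. At the density of the rest, 1162 regions would have had their midpoint there, where 714 did. The DNA of the neighbourhoods differed from the rest in composition: 44.6% of its bases were repeat-masked against 33.4%, its GC content was 38.6% against 42.0%, and it held 71.3 CA/TG runs per Mb against 108. Among unmasked bases alone, a comparison added after seeing the data, the libraries held 3.49 ± 0.94 peaks per Mb inside and 5.05 ± 1.30 outside (SD, n = 10). The log2 ratio was then -0.54 ± 0.20, 68.8% of the rest, and again below 0 in 10 of 10 libraries. Against DNA more than 10 kb from any protein-coding gene, also added after seeing the data, the density inside was 55.9% of the comparison.

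Other gene families, taken by the start of the gene symbol whether clustered or not, gave values on both sides. The vomeronasal receptors (Vmn), which detect pheromones, had fewer peaks: 2.32 ± 0.63 per Mb (SD, n = 10) within 10 kb of their genes. The olfactory receptor neighbourhoods held 1.63-fold as many, in 10 of 10 libraries (log2 ratio 0.70 ± 0.24). For the genes without flanks the log2 ratio was 1.58. Zinc finger genes (Zfp), which encode DNA-binding proteins, had 7.30 ± 1.96 peaks per Mb, and the olfactory receptors were below them in 10 of 10 libraries (log2 ratio -0.95 ± 0.28). Each comparison gave p = 0.00195 (exact sign-flip test, two-sided, adjusted p = 0.00195 over 2 tests). Repeat-masked bases made up 51.3% of the Vmn and 32.2% of the Zfp neighbourhoods. The parts of base composition and of reads that match several gene copies in these differences were not tested.

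The density varied by chromosome. It was below that of the same chromosome's rest on 15 of 18 chromosomes, and on 11 of the 12 that held at least 0.5 Mb of neighbourhoods. Chr2, with 370 Olfr genes the richest, had 20.7 regions per Mb, 43.9% of its rest. Chr7, with 293 genes, had 38.4 regions per Mb, 79.3% of its rest. Chr9 had 22.9 per Mb (45.4%) and chr17 had 20.4 (39.5%). Chr17 had 24 members over 63 genes, and none of them recurred in a second library. Density exceeded the rest on chr4 (56.7 per Mb, 120%), chr5 (54.0 per Mb, 103%, with 4 members) and chr15 (68.1 per Mb, 144%). The masked share of the members was 70.3% on chr15, the highest of any chromosome, where masked bases made up 37.6% of the neighbourhood DNA.

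Genes at most 1 Mb apart formed 61 clusters. The 17 clusters of at least 20 genes held 553 of the members at 27.0 regions per Mb, and 16 of the 17 were below the rest. The 13 clusters of 5 to 19 genes had 43.0 regions per Mb, and 7 of them were below it. The share of members found in at least 2 libraries was 13.7% in the former and 19.8% in the latter.

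The largest cluster ran from Olfr987 to Olfr1274-ps on chr2 (chr2:85330779-90403897), with 287 genes, 93 members and 21.0 regions per Mb. Its libraries averaged 2.71 ± 1.39 peaks per Mb (SD, n = 10), from 1.37 to 5.70. The chr7 cluster from Olfr543 to Olfr692 (chr7:102476579-105369355) holds the class I receptors, the branch of the family shared with fish. It had 156 genes, 89 members and 40.4 regions per Mb, with 4.63 ± 1.31 peaks per Mb per library. The cluster next along chr7, from Olfr693 to Olfr519 (80 genes), had 28.5 regions per Mb. The chr9 cluster from Olfr160 to Olfr986 had 123 genes, 66 members and 30.0 regions per Mb. The chr19 cluster (91 genes) and the chr10 cluster from Olfr9 to Olfr827 (67 genes) had 22.9 and 25.7 regions per Mb.

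Among clusters of at least 5 genes, the sparsest was that from Olfr1275 to Olfr1319-ps1 on chr2 (chr2:111230360-112167997). Its 46 genes in 0.863 Mb had 6 members, 6.95 per Mb, each in a single library, and no library held more than 1.16 peaks per Mb. The chr9 cluster from Olfr24 to Olfr18 came next, with 49 genes, 10 members and 9.16 regions per Mb. The densest were chr7 Olfr522 to Olfr542-ps1 (69.1 per Mb, 31 members), chr4 Olfr62 to Olfr1328 (68.8, 20 members) and chr7 Olfr1344 to Olfr1350 (68.8, 9 members). The chr15 cluster of 10 genes from Olfr288 to Olfr278-ps1 followed with 68.1 and 15 members. The libraries varied widely in these small clusters: the 20.1 peaks per Mb of the highest library in the Olfr522 cluster stood against 2.23 in the lowest. The densities of the densest clusters are therefore not ordered.

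**Figure D2:**
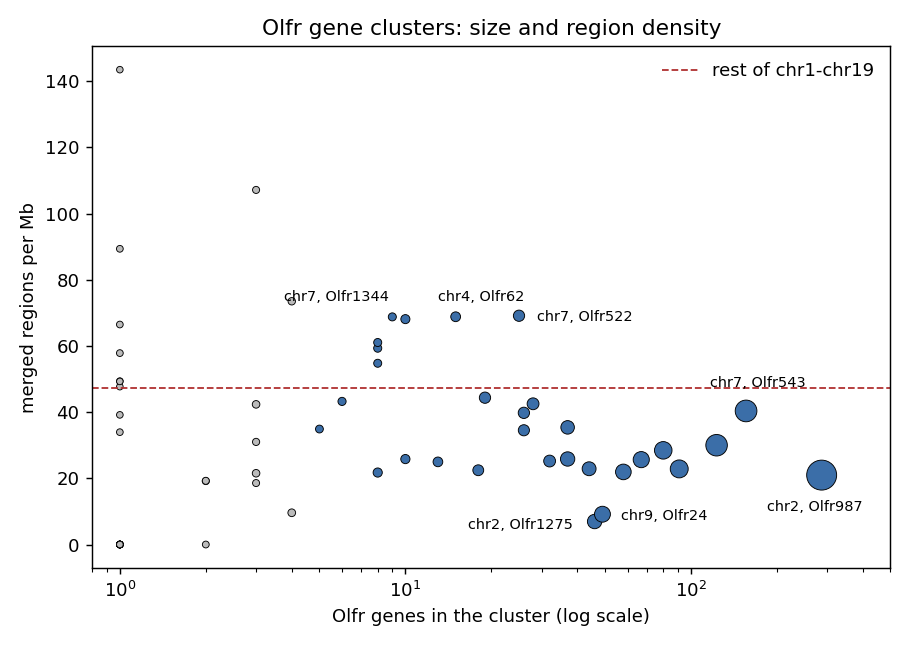
Merged regions per Mb (vertical axis) against the number of Olfr genes in each of the 61 clusters (horizontal axis, log scale). Point area grows with the Mb covered, blue points have at least 5 genes and the dashed line is the rest of chr1 to chr19 at 47.4 per Mb. Among the 17 clusters of at least 20 genes, 16 lie below the line, and small clusters scatter on both sides of it.

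Peaks of the neighbourhoods recurred less often between mice. Of the peaks in a library, 35.6% ± 5.12 (SD, n = 10) inside the neighbourhoods overlapped a peak of another library, against 50.8% ± 4.63 outside. The difference was -15.2 ± 4.82 percentage points and was negative in 10 of 10 libraries, from -26.6 to -10.7 (exact sign-flip test, two-sided, p = 0.00195, adjusted p = 0.00488). Of the 718 members, 608 (84.7%) were found in a single library, against 78.3% of the other regions. There were 110 in at least 2 libraries (15.3% against 21.7%), 48 in at least 3, 14 in at least 5 (1.95% against 5.73%) and 3 in at least 8 (0.418% against 1.71%). A single member was found in all 10.

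Recurrence moved with the CA/TG runs. Of the 110 members with such a run, 40.0% were in at least 2 libraries, close to the 41.4% of the other regions with a run. Of the 608 members without a run, 10.9% were, against 15.3% of the others. Members held a run less often, in 15.3% against 24.7% of the other regions. Per library, 21.4% ± 5.74 of the peaks inside held a run, against 28.9% ± 3.55 outside (SD, n = 10), lower inside in 9 of 10 libraries (exact sign-flip test, two-sided, p = 0.00391, adjusted p = 0.00488). F0 WD replicate 4 was the exception, at 27.0% inside and 25.8% outside. The runs in the DNA were also less often covered. Relative to the number of runs in the DNA, regions with a run were 57.3% as frequent inside as outside. Regions without any run were sparser as well, at 24.7 against 35.7 per Mb. The part of the runs in the density and recurrence differences was not tested.

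Repeat-masked bases were a smaller part of the peaks inside the neighbourhoods, although the DNA there is more masked. They made up 47.1% ± 5.30 of peak bases per library inside and 53.6% ± 4.25 outside (SD, n = 10). The difference of -6.49 ± 4.16 percentage points was negative in 9 of 10 libraries (exact sign-flip test, two-sided, p = 0.00391, adjusted p = 0.00488). In F0 WD replicate 1 both shares were 53.2%. For the genes without flanks the difference was -21.5 points, but the more masked DNA lies in the flanks. Masked bases made up 55.9% of the flank DNA, 33.1% of gene bodies over 1 kb from an Olfr start and 33.4% of the rest. DNA within 1 kb of an Olfr start was less masked still. The part of this DNA composition in the -21.5 points was not tested. Against the DNA within 10 kb of other protein-coding genes the difference was -2.66 points and was no longer called (adjusted p = 0.103 by exact sign flips). Counting each merged region once, the shares were 40.4% for members and 40.9% for the others. Members in a single library were 36.3% masked and those in at least 5 libraries 69.1%, against 31.5% and 75.4% among the other regions.

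No difference in peak height was detected. The median summit fold, the reads at the summit over the local background, was 3.85 ± 0.37 inside and 3.85 ± 0.34 outside (SD, n = 10), with a difference of 0.0005 ± 0.038 (exact sign-flip test, two-sided, p = 0.875). Only called peaks enter these medians, and in some libraries both were identical, as in F0 CD replicate 3 at 3.32. The median width of members was 225.5 bp, against 232 bp for the others. Their GC content was 48.2% against 48.1%, and they held 8.02 CpG dinucleotides per kb against 10.2.

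**Figure D3:**
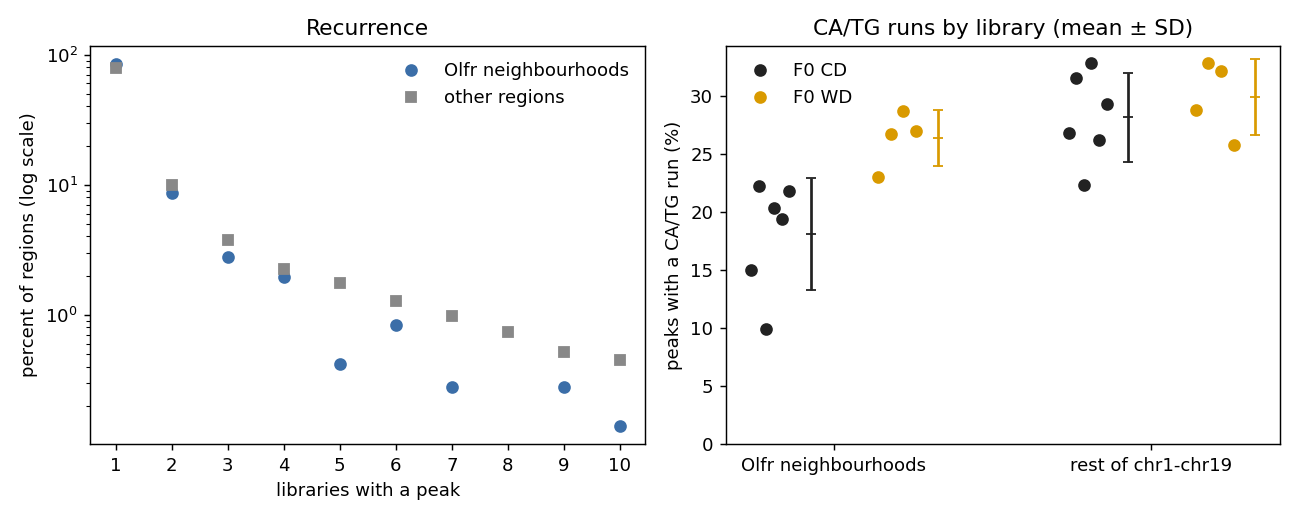
Left, percent of regions (log scale) by the number of libraries with a peak, for the 718 members (circles) and the other regions (squares), where the members at 8 libraries are 0 and not drawn. Right, percent of peaks with a CA/TG run per library (points) with mean ± SD for 6 F0 CD and 4 F0 WD libraries. Members lie above the other regions only at 1 library, and the run share inside is 9.90% to 22.3% in F0 CD and 23.0% to 28.8% in F0 WD.

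Motifs of factors that act at olfactory receptor genes in the nose were searched in all regions. CCCNNGGG, the core bound by EBF factors, was present on either strand in 47 members (6.55%, against 6.36% of the other regions). TAATTA, the core of homeodomain factors such as LHX2, was in 18 (2.51% against 2.35%). AGGGGGC, part of the CTCF site, was in 15 (2.09% against 2.66%). CCCNNGGG and AGGGGGC can share bases, and a match is a description of the sequence only.

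By position, 181 members (25.2%) lay within 1 kb of an annotated Olfr transcript start, 52 in an exon and 61 in an intron outside these windows, and 424 (59.1%) in the flanks. The start windows held 37.0 region midpoints per Mb, the gene bodies outside them 24.8 and the flanks 28.1. Per library this was 4.75 ± 1.47, 3.07 ± 1.11 and 3.77 ± 1.26 peaks per Mb (SD, n = 10). The windows count every annotated transcript, including those that begin at the coding exon. The regions in start windows were 18.6% masked, in DNA that was 20% masked. In the flanks they were 49.6% masked, in DNA that was 55.9% masked. Start-window members were shared by at least 2 libraries in 12.2% of cases and flank members in 16.0%. Only 13 members lay within 1 kb of the start of another protein-coding gene, and none of the 14 members in at least 5 libraries did.

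Seen from the genes, 690 of 1399 Olfr genes (49.3%) had a region within 10 kb, against 83.9% of 19679 other protein-coding genes, which are of other lengths. The share was 51.4% for the 1128 protein-coding Olfr genes and 41.4% for the 215 pseudogenes. A region stood within 1 kb of a start for 165 Olfr genes (11.8%), of which 22 had one shared by at least 2 libraries. Around the 5′ end of the gene, Olfr genes had 1.72 to 3.79 region midpoints per 100 genes in each kb, and other coding genes 4.37 to 5.85. In both the lowest value was in the kb just upstream of the 5′ end, with 24 midpoints for the Olfr genes.

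**Figure D4:**
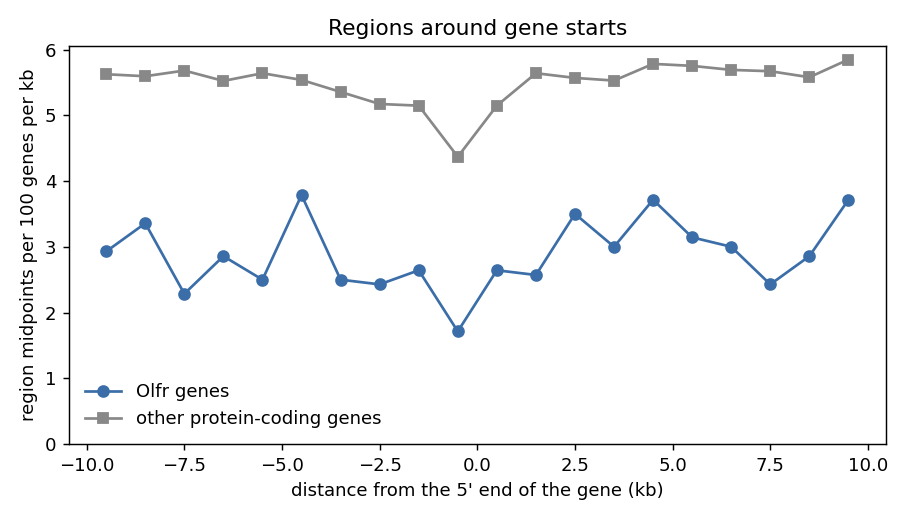
Region midpoints per 100 genes in each kb from 10 kb upstream to 10 kb downstream of the 5′ end, for 1399 Olfr genes (circles) and 19679 other protein-coding genes (squares). The Olfr line runs between 1.72 and 3.79 and the other line between 4.37 and 5.85, and both are lowest in the kb upstream of the start.

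The members found in the most libraries were mostly repetitive: in 10 of the first 12, more than 50% of the bases were masked. The member found in all 10 libraries was a chr4 region in an intron of Spaar, 9323 bp from the start of the pseudogene Olfr269-ps1. It held 24, 17, 15, 18, 19 and 19 reads at its strongest summit in F0 CD libraries 1 to 6. In F0 WD libraries 1 to 4 it held 22, 12, 11 and 25 reads. The ranges of the diets overlapped, and both the lowest and the highest value were in F0 WD.

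The chr15 cluster held 3 of the first 6 members by recurrence. The Olfr279 region (chr15:98496558-98497286, 89.4% masked) was found in 9 libraries, all but F0 CD replicate 3, with 16 to 25 reads. The region 3835 bp from the start of Olfr282 (chr15:98441305-98442058) was in 9 libraries, all but F0 CD replicate 1, with 14 to 26 reads. The region 7830 bp from Olfr283 (chr15:98371012-98371367, fully masked) was in 6 libraries. On chr7, the regions near Olfr1344 (chr7:6433326-6433823) and Olfr1345-ps1 (chr7:6444633-6445111) were in 7 libraries each, with 15 to 33 and 15 to 26 reads.

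The other 6 of the first 12 lay in 5 or 6 libraries each. The chr6 region near the pseudogene Olfr210-ps1 (chr6:73429506-73429997) stood out in composition, with 34 CpG dinucleotides in 492 bp and a TAATTA match. Peaks were called there in 5 mice on chow and 1 on the Western diet (Fisher's exact test, two-sided, p = 0.190). An intron region of Olfr768 (chr10:129094733-129095255), a region near Olfr875 (chr9:37774798-37775340) and an intron region of Olfr405-ps1 beside Olfr406 (chr11:74259090-74259538) had 12 to 18, 11 to 19 and 13 to 23 reads.

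The coding-exon regions of Olfr142 and Olfr1271 completed the list. The Olfr142 region (chr2:90252147-90252733) held 10 and 18 reads in F0 CD replicates 2 and 3. Its peaks in the 4 F0 WD libraries held 15, 10, 13 and 16 reads. The Olfr1271 region (chr2:90265512-90266355), the widest member at 844 bp, held 21, 18 and 15 reads in F0 CD replicates 1, 4 and 6. In F0 WD replicates 2, 3 and 4 it held 14, 16 and 15 reads. Detection of the Olfr1271 region gave p = 0.571 between diets (Fisher's exact test, two-sided). No F0 CD library had both regions, a pattern that was seen after the fact and was not tested. The regions are 93.9% identical where aligned, so the copy called in a library is uncertain.

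**Figure D5:**
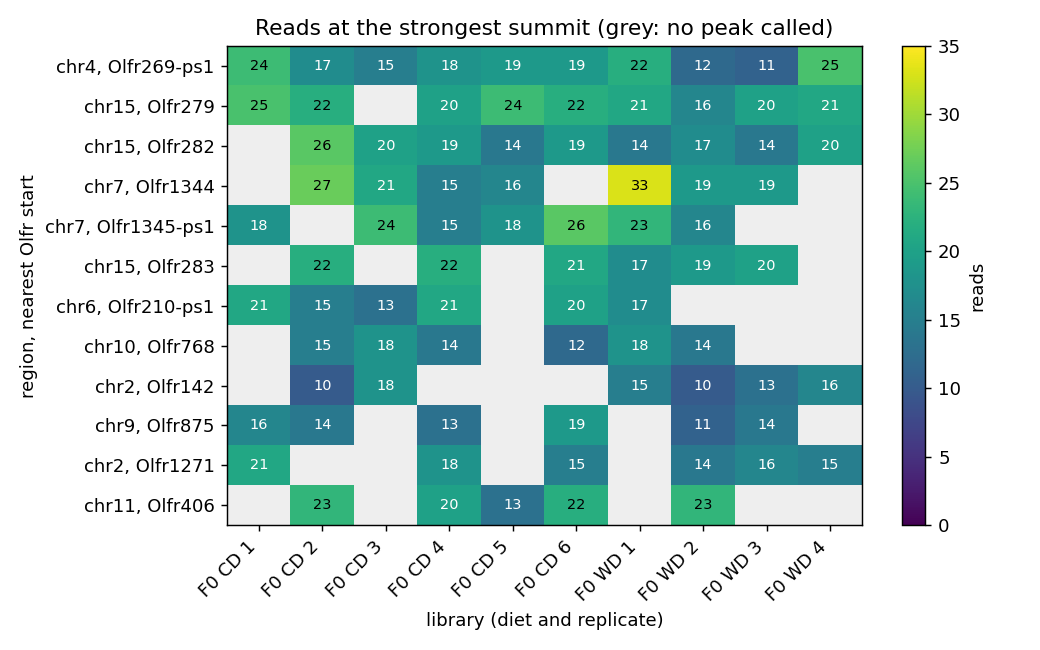
Reads at the strongest summit of the 12 members found in the most libraries (rows, named by chromosome and nearest Olfr start) in each of the 10 libraries (columns). Grey cells have no peak. The top row is filled in every library with 11 to 25 reads, and the Olfr142 row is filled in 2 of 6 F0 CD and 4 of 4 F0 WD libraries.

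Of 10 receptors well known from other work, 7 had a region within 10 kb, beside 49.3% of all Olfr genes. None of the 10 had a region within 1 kb of a start, beside 11.8% of all Olfr genes. Olfr16 had 1 region within 10 kb, in 1 F0 CD library. Olfr78, which responds to short-chain fatty acids and is expressed in kidney and carotid body, had 4 regions from 2 libraries. Olfr544, a receptor for azelaic acid, had 2 regions from 1 library, and Olfr1393, expressed in kidney, had 2 regions from 2 libraries. Olfr73, the eugenol receptor, and Olfr2 (I7), the octanal receptor, had 1 region each in 1 F0 WD library. Olfr160 (M72) had 2 regions, and Olfr151 (M71), Olfr17 (P2) and Olfr1507 (MOR28) had none.

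Start regions in at least 3 libraries were found for 12 genes. Apart from the genes already described, those of Olfr324, Olfr550 and Olfr542-ps1 had their best region in 4 libraries, 3 F0 CD and 1 F0 WD for Olfr550 and for Olfr542-ps1. Those of Olfr315, Olfr62, Olfr38 and Olfr398 were in 3 libraries.

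The design asks whether the Western diet changed which chromatin was open. Among the 110 members in at least 2 libraries, 81 had peaks under both diets, 24 in F0 CD alone and 5 in F0 WD alone. The shares of 21.8% and 4.55% were near the 21.8% and 5.26% of all 24763 such regions, and 6 F0 CD libraries stood against 4 F0 WD. By Fisher's exact test (two-sided, unadjusted p under 0.05), 0 of the 110 members were called more often in F0 WD, where 0.553% of all regions tested were called, and 0 more often in F0 CD, where 0.468% were. With 6 and 4 libraries, a call towards F0 WD needs peaks in at least 3 libraries and one towards F0 CD in at least 5. At most 48 members could therefore be called towards F0 WD and at most 14 towards F0 CD. Members reached at least 5 libraries less often than other regions, so the shares over all regions are not a like comparison. The mid-p form called 1 of the 110 in each direction, 0.909%, beside 0.783% of all regions towards F0 WD and 1.39% towards F0 CD. No region of the 24763 passed after Benjamini-Hochberg adjustment. The smallest p that Fisher's exact test can give with 6 and 4 libraries is 0.00476, so only a very large set of regions at that p could have passed. The smallest p among members was 0.0762, and members with this p leaned in both directions. They included the Olfr142 region (2 F0 CD and 4 F0 WD libraries) and a region near Olfr1512 (chr14:52375930-52376468, 4 F0 CD and 0 F0 WD libraries).

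No difference in density was detected between the diets. The log2 ratio of inside to outside was -0.96 ± 0.18 in F0 CD (SD, n = 6) and -1.04 ± 0.22 in F0 WD (SD, n = 4), a difference of -0.07 with a standard error of 0.13 (exact permutation test, two-sided, p = 0.576, adjusted p = 0.720 over 5 measures). For recurrence the difference between diets was 3.55 ± 2.73 percentage points (SE), with p = 0.281 by the same exact permutation test and adjusted p = 0.468. It ranged from 0.068 points without F0 CD replicate 2 to 6.13 without F0 WD replicate 1. For the masked share it was 0.285 ± 2.95 points (SE, adjusted p = 0.914 by exact permutation). For summit fold it was 0.050 ± 0.020 (SE, exact permutation p = 0.0476, adjusted p = 0.119).

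The share of peaks with a CA/TG run was the only one of the 5 measures to differ between diets after adjustment. In the F0 CD libraries 1 to 6 the share inside the neighbourhoods was 15%, 22.3%, 9.90%, 20.4%, 19.4% and 21.8%. In the F0 WD libraries 1 to 4 it was 23.0%, 26.8%, 28.8% and 27.0%. The groups did not overlap, although the counts were small: 10 of 101 peaks in F0 CD replicate 3 (95% exact binomial interval 4.85% to 17.5%) and 23 of 80 in F0 WD replicate 3 (19.2% to 40.0%). Such intervals cover counting error only. Outside the neighbourhoods the diets overlapped, with 22.3% to 32.8% in F0 CD and 25.8% to 32.8% in F0 WD. Set against the rest of each library, the share differed by -10.05 ± 2.54 points in F0 CD (SD, n = 6) and by -3.50 ± 3.40 points in F0 WD (SD, n = 4). The difference between diets was 6.55 points with a standard error of 1.99 (exact permutation test, two-sided, p = 0.00952, adjusted p = 0.0476). It did not pass when any single library was left out (4.95 to 7.41 points). Without an F0 WD library it could not have passed: too few assignments remain for this measure alone. The smallest adjusted p it can then reach by exact permutation is 0.0595, the value found without F0 WD replicate 1 and without F0 WD replicate 2. The difference between diets was -2.40 points when the genes were taken without their 10 kb flanks. The peak names carry a library number, and those of the F0 CD libraries form a single unbroken run with the F0 WD numbers before and after it. The sources do not say what the numbers stand for, and their part in the diet differences was not tested.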

How the data were processed

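The data are 10 peak lists of cauda epididymal sperm, 6 F0 CD and 4 F0 WD, grouped by their titles. According to the study's methods and the submitters' processing notes, Trim Galore 0.6.10 was used by the authors for trimming and Bowtie2 2.4.5 for alignment to mm10, the GRCm38 build, reporting several alignments per read. They then removed duplicates with Picard 2.24.0 and low-quality alignments with SAMtools, kept short fragments and called peaks per library with MACS2 2.2.7.1 at q 0.05. The deposited score is the authors' integer form of the q-value, the deposited fold is a ratio of reads at the summit to background, and the p-value and q-value were deposited as −log10 values.

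Peaks of the 10 lists that shared at least 1 bp were joined into regions. Regions were members where they touched an Olfr gene of GENCODE M21 extended by 10 kb, and densities and shares per library used interval midpoints. Bases that are N were left out, and lower-case bases of the RefSeq GRCm38 sequence were counted as repeat-masked. Measures were compared with the rest of chr1 to chr19 by exact sign flips over the libraries (1024 patterns) and between diets by exact permutation (210 assignments), with Benjamini-Hochberg adjustment over 5 measures. Fisher's exact test compared detection over 24763 regions with a peak in at least 2 libraries. Without read counts in the lists, the study's count model was not fitted. Precision is set by the 60 to 157 peaks per library in the neighbourhoods, and the total depth in reads is not in the lists. The 12 members in the most libraries, the 3 widest, the start regions in the most libraries, the largest, densest and sparsest clusters and a list of known receptors were named by rule. Olfr38 and Olfr398, tied with genes named by the rule, were added after their values were seen. The members, lists and tests were chosen with earlier results of these data known. Sequences are printed for 4 of the named regions, and the others are not reported here. Scripts were tested on simulated data. The tools were samtools 1.23.1, scipy 1.17.1 and numpy 2.4.6 under Python 3.11.15, with pysam 0.24.0, pandas 2.3.3 and Biopython 1.88.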

Additional observations from a re-analysis of the deposited data

Results flagged for a closer look

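The share of neighbourhood peaks with a CA/TG run, taken relative to the rest of the same library, differed between the diets. It was 6.55 percentage points higher in F0 WD than in F0 CD (SE 1.99, n = 6 and 4, exact permutation test, two-sided, p = 0.00952, adjusted p = 0.0476). It was picked out because the difference itself passed the test. The share inside was 18.1% ± 4.799 in F0 CD (SD, n = 6) and 26.4% ± 2.42 in F0 WD (SD, n = 4), and it rests on 9 to 35 peaks with a run per library. The call was kept under some alternatives and lost under several others, as given among the effects of processing.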

How the results depend on the processing

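Density, recurrence, the CA/TG run share and the comparisons with Vmn and Zfp genes kept direction and call under every alternative run. The log2 density ratio lay between -1.13 and -0.54 over all of them, and between -1.02 and -0.96 when single libraries were left out. The masked share lost its call only against DNA near other coding genes (-2.66 points, adjusted p = 0.103 by exact sign flips). It was -21.5 points with no flank, a setting that leaves out the more masked DNA of the flanks.

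Of the diet differences, the CA/TG run share was 7.35 points at q under 0.01 (adjusted p = 0.0952), 3.92 with equal list lengths (adjusted p = 0.310), -2.40 with no flank, and 4.95 to 7.41 when single libraries were left out, where adjusted p was 0.0595 to 0.119 (all by exact permutation). It kept its call with 50 kb flanks (6.69 points, exact permutation, adjusted p = 0.0238). The same held for protein-coding Olfr genes alone (6.71 points, exact permutation, adjusted p = 0.0476). Without an F0 WD library, too few assignments remain for the run share alone to reach an adjusted p below 0.0595 by exact permutation. The sources do not say whether libraries of the same replicate number were handled together. Deviations of same-numbered libraries correlated at -0.011 to 0.036, and values from 4 pairs do not settle it. With the replicate block the run share difference was 7.99 points (exact sign flips within pairs, adjusted p = 0.3125) and that of the masked share -0.69, and 4 pairs cannot give a p below 0.125.

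Differences that had not passed also moved or changed sign. For recurrence by diet the range without single libraries was 0.068 to 6.13 points. For density by diet the log2 difference was 0.031 with no flank and -0.15 to 0.0036 without single libraries. For the masked share by diet it was -1.45 points with equal list lengths and -1.82 to 1.58 without single libraries. Summit fold differed by -0.047 with no flank, -0.00092 with 50 kb flanks, -0.021 for protein-coding genes alone, -0.060 with equal list lengths and -0.0065 to 0.0071 without single libraries, and by diet by -0.21 with no flank.

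Members called by Fisher's exact test numbered 0 to 1 in either direction: 1 towards F0 WD at q under 0.01 (of 102, where 0.528% of all regions were called) and with 50 kb flanks (of 167, beside 0.553%), 1 in each direction by mid-p (beside 0.783% and 1.39%), and 0 to 1 without single libraries (beside 0.369% to 1.19% towards F0 WD and 0.483% to 1.23% towards F0 CD). A gap of 200 kb gave 73 clusters. The smallest summit of a member held 9 to 13 reads across the libraries, and regions too weak to be called were not detectable.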

Other observations

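Genes that carry the odorant signal or control receptor choice were counted as well. All 18 genes of the list (among them Gnal, Adcy3 and Cnga4 of the transduction cascade and Lhx2, Ebf1 and Ldb1 of the transcriptional control) had a region within 10 kb, but many are long. A region within 1 kb of a start was present for 7 of 18 (38.9%), beside 23.2% of other protein-coding genes and 11.8% of Olfr genes. None of these was in at least 5 libraries. The best start region of the list was that of Lhx2, in 2 libraries. The best region anywhere was in 8 libraries for Ano2, which encodes the calcium-activated chloride channel of olfactory neurons, in 6 for Ebf1 and in 5 for Reep1, which lie in or around genes of 349.7, 390.8 and 103.2 kb.

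The trace amine receptors (Taar), a separate family of amine receptors that stand in a cluster of chr10, had a region within 10 kb for 10 of 16 genes. That of Taar1 was in 6 libraries, and no Taar gene had a region within 1 kb of a start.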
